A study of Homo sapiens with 6 samples.

Results

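The genes described here are a set of 9 symbols known from the retinal pigment epithelium and from melanin-forming cells: MERTK, SERPINF1, BEST1, MITF, PMEL, TYR, TYRP1, OCA2 and TTR. They were taken by name from a table of 17013 genes, which held rows for 8 of the 9. TYR has no row in the table used here, so its level was not analysed here. Of the 8, 5 had enough counts to be tested (MERTK, SERPINF1, BEST1, MITF and OCA2), while PMEL, TYRP1 and TTR did not.

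The cells were Y79, an established human retinoblastoma line. Retinoblastoma is a childhood tumour of the developing retina, and Y79 cells carry many extra copies of MYCN, a transcription factor gene that drives growth. One group of 3 libraries came from cells transduced with a control shRNA and labelled MYCN wild-type, and the other 3 came from cells transduced with an shRNA against MYCN and labelled MYCN knockdown. All 6 libraries were poly(A) RNA of the same line in 1 labelled batch, and the series text calls the replicates independent. Neither the number of hairpins per target nor the time of harvest is given in the sources used here.

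The pigment epithelium is a single sheet of cells behind the photoreceptors. It absorbs stray light with melanin, transports ions and nutrients, recycles the visual chromophore, and engulfs the tips that photoreceptors shed every day. Pigment epithelium and neural retina arise from the same optic cup, where MITF favours the pigmented fate and other factors favour the neural one. Melanin itself is made in melanosomes, organelles that need structural proteins, tyrosinase-family enzymes and ion transporters. In the retina these genes are therefore known mainly as markers of a neighbour of the cell type from which retinoblastoma arises.

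The hairpin's target was lower in every library that carried it. MYCN measured 3046, 3128 and 2876 CPM (counts relative to library size, scaled between libraries by the TMM method) in control replicates 1, 2 and 3, and 2413, 2284 and 2195 CPM in MYCN hairpin replicates 1, 2 and 3. Its log2 fold change was -0.39 ± 0.043 (SE; adjusted p = 8.03e-11 by the quasi-likelihood test of edgeR). Library totals ran from 15490263 to 16078416 estimated counts. A gene was called when its p-value, adjusted over all 12819 tested genes, was under 0.05, and 75.8% of tested genes were called, 38.0% higher and 37.9% lower with the MYCN hairpin. For 76.8% of tested genes all libraries of one group lay above all of the other. Of the 5 tested members 4 were called (2 higher, 2 lower), a share near that of the whole table, so nothing is read from their number.

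Photoreceptor markers were present. All 11 photoreceptor markers passed the filter on low counts, with a summed level of 3072 to 3163 CPM in controls and 2966 to 3076 CPM with the MYCN hairpin. Single photoreceptor markers moved more than their sum: 8 of 11 rose, 3 fell, and the median of the log2 fold changes was 1.26. Of 16 pigment epithelium markers 14 had rows and 7 were tested, of which 3 rose and 1 fell. Their summed level was 799 to 814 CPM in controls and 500.1 to 513 CPM with the MYCN hairpin, most of it from SERPINF1 and DCT. The melanocyte list had 6 of its 9 markers in the table, with a sum of 332 to 356 and 322 to 343 CPM, again nearly all DCT, and only DCT was tested. Summed markers of fibroblasts spanned 2.22 to 2.67 CPM in controls and 5.12 to 6.43 CPM with the MYCN hairpin (2 of 3 tested rose), and those of endothelium 3.93 to 4.66 and 31.3 to 35.0 CPM (1 of 1 rose, KDR at 0). Leukocyte markers spanned 3.40 to 3.81 and 4.94 to 5.73 CPM (1 of 1 rose), and hepatocyte markers 22.7 to 25.8 and 19.4 to 21.7 CPM (1 of 1 fell). Müller glia markers spanned 1150 to 1195 and 1172 to 1205 CPM (1 of 3 rose, 1 fell, SOX2 at 0), and choroid plexus markers 1068 to 1116 and 682 to 697 CPM (2 of 4 rose, 2 fell, CLIC6 at 0), a list that includes OTX2. Of the markers counted as higher, RPE65, COL1A2 and KL passed the filter on low counts only through the MYCN hairpin libraries. Among all tested genes 38.0% were higher and 37.9% lower, and nothing is read from the marker counts. The part of these cell types in the results below was not tested. In bulk RNA, a change in the number of cells that express a gene and a change in RNA per cell cannot be told apart.

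**Figure D1:**
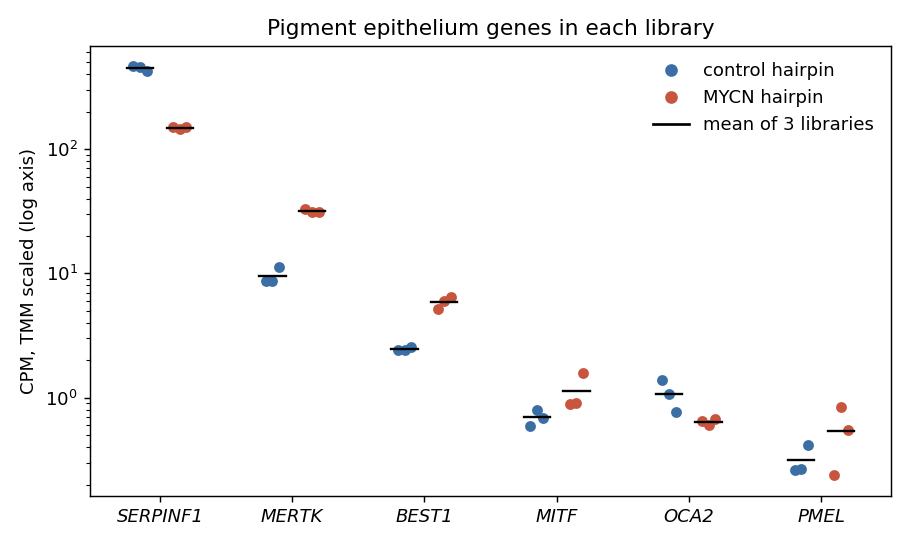
CPM on a log axis for the 6 members with more than 3 counts in either group, with 3 control hairpin libraries and 3 MYCN hairpin libraries as points and the group means as lines. SERPINF1 lies near 450 CPM in controls and 149 CPM with the MYCN hairpin, MERTK and BEST1 lie higher with the MYCN hairpin, and MITF, OCA2 and PMEL lie between 0.238 and 1.59 CPM in all 6 libraries.

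MERTK was higher with the MYCN hairpin, as were 10 of the other 14 tested genes of outer segment phagocytosis. That list was chosen with earlier results of these data known, and 38.0% of all tested genes were higher. MERTK (chr2:111898479-112029561, GRCh38, plus strand) encodes a receptor tyrosine kinase of the TAM family, which the pigment epithelium needs to engulf shed outer segments. It measured 8.67, 8.74 and 11.3 CPM in control replicates 1, 2 and 3, and 32.9, 30.9 and 31.1 CPM in MYCN hairpin replicates 1, 2 and 3. The groups lay far apart, with the lowest MYCN hairpin library well above the highest control. Mean levels were 9.57 ± 1.5 and 31.7 ± 1.1 CPM (SD, n = 3 in each group), 3.31 times as high with the MYCN hairpin. The log2 fold change was 1.73 ± 0.085 (SE; edgeR adjusted p = 1.1e-21), above that of 96.4% of tested genes.

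The other TAM receptors moved the same way as MERTK. TYRO3 stood at 5.36 ± 0.29 CPM in controls and 24.9 ± 0.99 with the MYCN hairpin (SD, n = 3), a log2 fold change of 2.22 ± 0.097 (edgeR adjusted p = 1.41e-23). Its counts were not whole in every library, and a processed pseudogene, TYRO3P, shares its sequence, so its level is less certain than that of MERTK. AXL stood at 4.18 ± 0.29 and 13.1 ± 0.18 CPM, a log2 fold change of 1.64 ± 0.117 (edgeR adjusted p = 2.61e-16). For both genes all MYCN hairpin libraries were above all control libraries.

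The bridging ligands of these receptors, GAS6 and PROS1, rose less. TULP1 and TUB, also described as ligands in this pathway, did not rise and are given below. GAS6, a vitamin K-dependent protein that bridges TAM receptors to phosphatidylserine on the target membrane, rose from 31.9 ± 0.53 to 44.9 ± 4.3 CPM (SD, n = 3; log2 fold change 0.50 ± 0.063). PROS1, which encodes protein S, the other bridging ligand, rose from 25.0 ± 2.6 to 34.7 ± 1.3 CPM (0.48 ± 0.069). The 95% intervals of these log2 fold changes, 0.37 to 0.62 and 0.34 to 0.62, lie below the 1.56 to 1.90 of MERTK. The difference between these bridging ligands and the receptors was not tested.

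A separate route of recognition runs through the integrin of the αv and β5 chains and its ligand. MFGE8, which encodes that ligand, measured 2.95, 1.73 and 2.36 CPM in control replicates 1, 2 and 3, and 27.4, 27.3 and 29.6 CPM in MYCN hairpin replicates 1, 2 and 3. Its log2 fold change of 3.58 ± 0.119 (edgeR adjusted p = 1.31e-27) was the highest of the list. The integrin chain gene ITGAV rose from 12.1 ± 1.4 to 55.8 ± 1.7 CPM (2.20 ± 0.071) and ITGB5 from 36.4 ± 1.04 to 75.3 ± 3.6 CPM (1.05 ± 0.055). CD36, a scavenger receptor gene, rose from 0.269 ± 0.18 to 1.56 ± 0.36 CPM, and passed the filter on low counts only through the MYCN hairpin libraries.

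Inside the cell, genes for engulfment split. DOCK1, which activates the small GTPase RAC1, rose from 34.6 ± 0.50 to 71.5 ± 1.5 CPM (log2 fold change 1.05 ± 0.054), and RAC1 from 139 ± 2.5 to 175 ± 1.4 CPM (0.33 ± 0.040). ELMO1, the partner of DOCK1, fell by 0.20 ± 0.090 (edgeR adjusted p = 0.0448), a call that ended when any of 4 libraries was left out: control replicates 2 and 3 and MYCN hairpin replicates 2 and 3 (adjusted p up to 0.202). It also ended in DESeq2 (0.123), upper quartile scaling (0.106), the filter of 1 CPM in 3 libraries (0.0505) and library size only, where the log2 fold change was -0.017 (0.871). PTK2, which encodes focal adhesion kinase, fell by 0.28 ± 0.039. TULP1 fell by 0.86 ± 0.041, from 202 ± 4.6 to 111 ± 4.6 CPM. TULP1 and TUB are related proteins described as ligands in this pathway, and TUB, at 4.92 ± 0.50 and 3.73 ± 1.4 CPM, was not called (adjusted p = 0.0669). Its MYCN hairpin replicate 1 stood at 2.14 CPM, while replicates 2 and 3, at 4.52 and 4.51 CPM, lay within the control range of 4.37 to 5.34 CPM. TUB was called lower without a filter (0.0132) and without MYCN hairpin replicate 2 (0.0206) or 3 (0.0191), settings that all keep replicate 1.

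In all, 11 of 15 tested phagocytosis genes rose, MERTK among them, and 3 fell. The 11 include CD36, which passed the filter on low counts only through the MYCN hairpin libraries. The median of their log2 fold changes was 1.05. Over all tested genes the shares were 38.0% higher and 37.9% lower, with a median of 0.00. Since the list was chosen with earlier results of these data known, nothing is read from its distance to these shares. The list's median was 0.759 without a filter on low counts and 1.23 with library size as the only scaling. LGALS3, the remaining gene of the list, had too few counts to test.

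**Figure D2:**
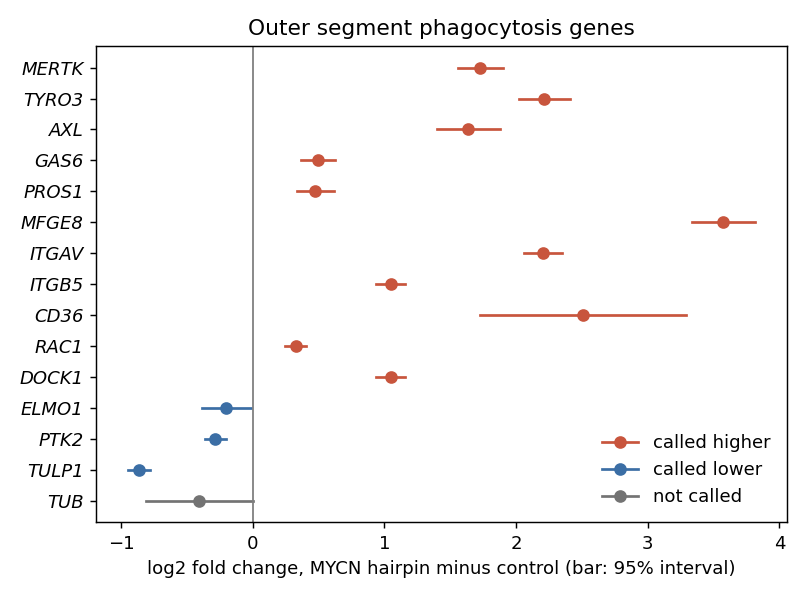
Log2 fold change of each tested gene of the phagocytosis list, MYCN hairpin minus control, with 95% intervals from the edgeR fit as bars. The TAM receptors, GAS6, PROS1, the integrin chains and MFGE8 (3.58) lie right of 0, while ELMO1, PTK2, TULP1 and TUB, which was not called, lie left of it.

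SERPINF1 was the most abundant member and fell with the MYCN hairpin. It encodes pigment epithelium-derived factor (PEDF), a secreted serpin without protease-inhibiting activity that is known to restrain vessel growth and to support photoreceptors. The gene (chr17:1761959-1777574, GRCh38, plus strand) measured 463.0, 458 and 428 CPM in control replicates 1, 2 and 3, and 151, 145 and 151 CPM in MYCN hairpin replicates 1, 2 and 3. Every MYCN hairpin library was far below every control. Group means were 449.8 ± 19.1 and 149 ± 3.6 CPM (SD, n = 3), 3.02 times lower with the MYCN hairpin. The log2 fold change of SERPINF1 was -1.59 ± 0.041 (SE; edgeR adjusted p = 1.16e-31). Only 1.45% of tested genes had a lower log2 fold change, and 96.1% were less abundant.

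Of 5 genes for proteins reported to bind PEDF 4 were called lower, by smaller amounts, and 3 of the 4 calls depended on the processing. Among all tested genes 37.9% were called lower. PLXDC1 was not called, at 22.6 CPM in controls and 23.3 CPM with the MYCN hairpin (edgeR adjusted p = 0.579). PNPLA2, a lipase gene, fell by 0.25 ± 0.116 (edgeR adjusted p = 0.0454). This call ended without control replicate 1 or 2 or MYCN hairpin replicate 2 or 3 (adjusted p up to 0.229), and in DESeq2 (0.132), upper quartile scaling (0.0909) and library size only (log2 fold change -0.07, 0.575). PLXDC2 fell by 0.48 ± 0.163 (edgeR adjusted p = 0.00756, 0.0633 without MYCN hairpin replicate 3 and 0.0924 with library size only), and LRP6 by 0.15 ± 0.052 (0.00777). LRP6 lost its call without control replicate 3 or MYCN hairpin replicate 1, and had a log2 fold change of 0.03 with library size as the only scaling. RPSA, a ribosomal protein that also serves as a laminin receptor, fell from 2631 ± 58.7 to 1446 ± 44.4 CPM, and its many pseudogenes make its count uncertain.

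Among genes that PEDF is usually set against or beside, VEGFA, an angiogenic growth factor, fell from 95.7 ± 2.6 to 26.6 ± 1.9 CPM (log2 fold change -1.85 ± 0.056). TIMP3, an inhibitor of matrix proteases that also binds a VEGF receptor, rose from 13.6 ± 0.52 to 80.9 ± 4.6 CPM (2.57 ± 0.066). RNA of SERPINF1 and of VEGFA, whose proteins are known for opposing effects on vessels, was therefore lower in both cases. Protein was not measured. In the list of 12 genes of PEDF binding and vessel growth, 9 were tested, 6 fell and 1 rose (median log2 fold change -0.254). SERPINF1 itself is among the 6, and 37.9% of all tested genes fell while 38.0% rose. With library size as the only scaling 3 fell and 3 rose. THBS1 and KDR were at 0 in all 6 libraries.

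BEST1 was higher with the MYCN hairpin, at low levels. It encodes bestrophin, a calcium-activated chloride channel of the basal pigment epithelium membrane that is altered in a form of macular dystrophy. The gene (chr11:61949821-61965515, GRCh38, plus strand) measured 2.43, 2.40 and 2.57 CPM in control replicates 1, 2 and 3, and 5.18, 6.03 and 6.41 CPM in MYCN hairpin replicates 1, 2 and 3. The groups did not overlap. Mean levels were 2.47 ± 0.088 and 5.87 ± 0.63 CPM (SD, n = 3), a log2 fold change of 1.25 ± 0.159 (SE; edgeR adjusted p = 3.24e-09), above that of 93.6% of tested genes.

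The BEST1 count is tied to that of another gene. FTH1, which encodes the heavy chain of the iron store ferritin, lies on the opposite strand (chr11:61959718-61967660) and shares 1267 exonic bases with BEST1 in GENCODE 29. BEST1 was the only member whose estimated counts were not whole, and they were not whole in any of the 6 libraries: 37.46, 36.46 and 36.64 in control replicates 1, 2 and 3, and 87.30, 100.17 and 105.43 in MYCN hairpin replicates 1, 2 and 3. FTH1 held 6644.54, 6491.54 and 5835.36 counts in the same controls and 5454.70, 5486.83 and 5102.57 with the MYCN hairpin. Their sum was whole to within 0.011 counts in 6 of 6 libraries, which is the pattern of reads divided between the pair. Whether the counting used strand is not given in the sources used here.

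FTH1 and BEST1 moved in opposite directions. FTH1 fell from 425 ± 17.4 to 322 ± 10 CPM (log2 fold change -0.40 ± 0.040, edgeR adjusted p = 5.62e-12). BEST1 made up 0.561%, 0.558% and 0.624% of the sum in control replicates 1, 2 and 3, and 1.57%, 1.79% and 2.02% in MYCN hairpin replicates 1, 2 and 3. How many of the BEST1 counts came from BEST1 transcripts was not tested.

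**Figure D3:**
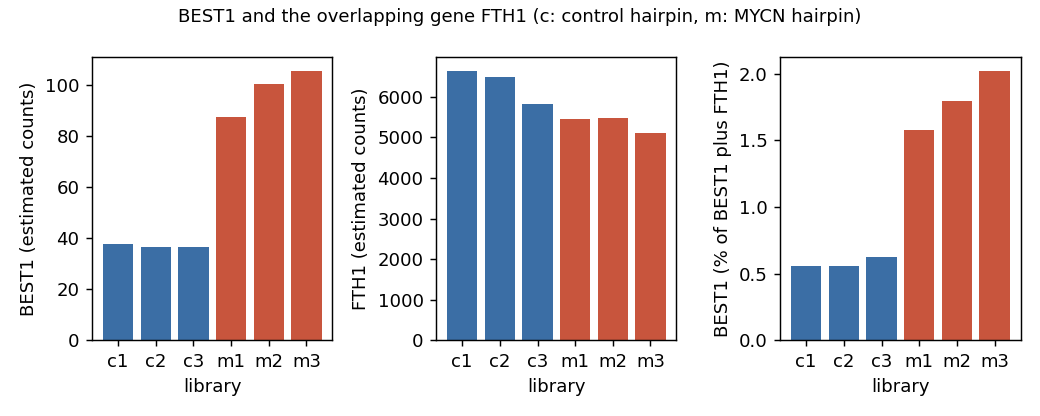
Estimated counts of BEST1 (left) and FTH1 (middle) and the percentage of BEST1 in their sum (right), with 1 bar per library, c1 to c3 with the control hairpin and m1 to m3 with the MYCN hairpin. BEST1 rises while FTH1 falls, so the BEST1 share goes from at most 0.624% in controls to at least 1.57%.

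Other transport genes of the epithelium moved in both directions. ATP1B1, a subunit of the sodium pump, rose from 32.3 ± 2.2 to 149 ± 6.4 CPM and the glucose transporter gene SLC2A1 from 47.8 ± 1.5 to 73.5 ± 1.6 CPM. CA12, a membrane carbonic anhydrase gene, fell from 862 ± 35.9 to 482 ± 12.3 CPM, and the lactate transporter gene SLC16A3 from 1.44 ± 0.23 to 0.644 ± 0.097 CPM. Of 17 genes in this list 13 were tested, BEST1 among them. Of the 13, 7 rose and 4 fell (median log2 fold change 0.216), against 38.0% and 37.9% of all tested genes. Of the genes that rose or fell in the list, CA2 passed the filter only through the MYCN hairpin libraries, and SLC16A3 and CA14 only through the controls.

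MITF stayed near 1 CPM. It encodes the basic helix-loop-helix leucine zipper factor that specifies pigment cells and binds E-box sequences in melanin genes. MITF (chr3:69739435-69968337, GRCh38, plus strand) had 9, 12 and 10 counts in control replicates 1, 2 and 3, and 15, 15 and 26 counts in MYCN hairpin replicates 1, 2 and 3. The groups did not overlap, although 1 library, MYCN hairpin replicate 3, stood well above the other two of its group. Mean levels were 0.695 ± 0.105 and 1.13 ± 0.397 CPM (SD, n = 3), and the log2 fold change of 0.69 ± 0.329 did not pass the test (SE; edgeR adjusted p = 0.0548). It was 0.37 without MYCN hairpin replicate 3 (adjusted p = 0.383) and passed without MYCN hairpin replicate 1 (0.0346) or 2 (0.0378), under upper quartile scaling and with library size alone. MITF passed the filter on low counts only through the MYCN hairpin libraries. Summed over libraries, 31 and 56 counts give a ratio of 1.62 with an exact 95% interval of 1.03 to 2.60, which covers counting error only.

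The close relatives of MITF were more abundant. TFE3, which shares its DNA-binding motif, rose from 20.2 ± 2.1 to 26.1 ± 0.96 CPM (log2 fold change 0.37 ± 0.075, edgeR adjusted p = 2.46e-05). TFEB, a regulator of lysosome genes, measured 4.64 ± 0.15 and 5.46 ± 0.78 CPM and did not pass (0.24 ± 0.142, adjusted p = 0.128, and 0.0457 without MYCN hairpin replicate 2). With library size only TFEB was called, at 0.42 (0.00858). Per kilobase of exon, MITF stood at 0.0968 CPM and TFE3 at 4.71 CPM in controls.

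Factors of the optic cup that work with or against MITF also differed. OTX2, needed in both pigment epithelium and photoreceptors, fell from 1078 ± 26.0 to 680 ± 9.4 CPM (log2 fold change -0.67 ± 0.039), and OTX1 from 1.83 ± 0.33 to 1.08 ± 0.29 CPM. OTX1 lost its call in DESeq2 (adjusted p = 0.0553) and without MYCN hairpin replicate 3 (0.0652). LHX2, an eye field factor, rose from 11.7 ± 1.5 to 23.7 ± 2.6 CPM and CRX, the photoreceptor homeobox factor, from 217 ± 10.8 to 278 ± 6.2 CPM. Of 7 tested genes of this list 3 rose and 2 fell, or 5 and 2 with library size as the only scaling, and the median log2 fold change was 0.357. Shares over all tested genes were 38.0% higher and 37.9% lower in the main fit.

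The melanosome members with rows in the table had few or no counts. Promoter sequences are shown for TYR, TYRP1 and OCA2 because their windows hold the 6-base E-box CATGTG that MITF family proteins bind. They come from RefSeq (GRCh38.p14), where windows from 250 bases before to 50 after a gene's start were given for 5 members: MERTK, MITF (with 3 starts), TYR, TYRP1 and OCA2. Both strands were searched. Capitals mark the E-box, and each sequence reads in the direction of its gene.
TYR: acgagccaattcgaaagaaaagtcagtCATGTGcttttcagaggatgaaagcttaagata
TYRP1: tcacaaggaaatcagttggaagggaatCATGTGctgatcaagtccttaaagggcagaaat
OCA2: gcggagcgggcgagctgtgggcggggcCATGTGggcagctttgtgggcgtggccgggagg

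The TYR stretch is chr11:89177744-89177803 on the plus strand, with the E-box starting 104 bases before the transcription start. The TYRP1 stretch is chr9:12693214-12693273 on the plus strand, with the E-box 144 bases before the start. In both, a T precedes the E-box, giving the 7-base form TCATGTG. The OCA2 stretch is chr15:28099436-28099495 on the minus strand, with the E-box 153 bases before the start and no preceding T. TYR holds a further CATGTG 12 bases before the start, and TYRP1 holds one on the opposite strand 11 bases before it. CATGTG occurred in 3 of the 7 member windows and in 11.1% of all 35116 windows, and TCATGTG, which contains it, in 2 of 7 and in 2.92%. CACGTG, the E-box that MYC family proteins prefer, occurred in 0 of 7 and in 7.26% of all windows. A match describes the letters in these windows and is not evidence of binding.

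TYRP1, which encodes a melanosomal enzyme that stabilises tyrosinase (chr9:12685439-12710290, GRCh38, plus strand), had 0 counts in all 6 libraries. A count of 0 allows up to 3 counts over a group, or 0.0672 CPM in controls and 0.0603 CPM with the MYCN hairpin. The level of TYR (chr11:89177452-89295759, plus strand), the gene of the rate-limiting enzyme of melanin synthesis, is not analysed here.

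OCA2 encodes a melanosome membrane transporter that sets melanosome pH and is altered in a form of albinism. The gene (chr15:27754875-28099358, GRCh38, minus strand) had 21, 16 and 11 counts in control replicates 1, 2 and 3, and 11, 10 and 11 counts in MYCN hairpin replicates 1, 2 and 3. The raw counts met at 11, and after scaling the lowest control, at 0.763 CPM, was above the highest MYCN hairpin library, at 0.671 CPM. Group means were 1.07 ± 0.308 and 0.643 ± 0.035 CPM (SD, n = 3). OCA2 fell by 0.73 ± 0.330 (SE; edgeR adjusted p = 0.042). The call did not last: leaving out any library except control replicate 3 ended it, and without control replicate 1 the log2 fold change was -0.51 (adjusted p = 0.232). DESeq2 gave an adjusted p of 0.153.

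PMEL encodes the fibril protein on which melanin is laid down. The gene (chr12:55954105-55973317, GRCh38, minus strand) had 4, 4 and 6 counts in control replicates 1, 2 and 3, and 4, 14 and 9 counts in MYCN hairpin replicates 1, 2 and 3. The groups overlapped, because MYCN hairpin replicate 1 was as low as the controls. The sums of 14 and 27 counts give a ratio of 1.73 with an exact 95% interval of 0.876 to 3.57, so no difference was detectable at this depth. Without the filter on low counts its adjusted p was 0.198. CDK2, a cell cycle kinase gene on the opposite strand, lies partly within the PMEL span and shares 89 exonic bases with it. CDK2 rose from 50.2 ± 1.1 to 76.3 ± 3.1 CPM. Without knowledge of strand, the source of reads from these shared bases is unknown.

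The other tyrosinase-family gene, DCT, stood apart from these low levels. DCT, whose enzyme dopachrome tautomerase acts after tyrosinase, was chosen for mention after its values were seen. It measured 334, 331 and 355 CPM in control replicates 1, 2 and 3, and 322, 342 and 333 CPM in MYCN hairpin replicates 1, 2 and 3. The groups overlapped, and the log2 fold change of -0.03 had a 95% interval of -0.11 to 0.05 (edgeR adjusted p = 0.438). With library size as the only scaling it was 0.15 (adjusted p = 0.000497), so no direction is given for it. Per kilobase of exon DCT stood at 45.1 CPM in controls, against 0.324 for OCA2 and 0.0808 for PMEL. High DCT with TYRP1 at 0 was found in all 6 libraries.

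Among other melanosome genes, GPNMB, a relative of PMEL that also serves lysosomes, rose from 1.09 ± 0.23 to 2.01 ± 0.14 CPM (log2 fold change 0.87 ± 0.248). MFSD12, a cysteine importer of melanosomes and lysosomes, fell from 31.9 ± 1.9 to 18.9 ± 2.1 CPM, and MC1R, the melanocortin receptor gene, from 16.9 ± 1.6 to 12.9 ± 0.83 CPM. Of 16 genes in the list of melanin synthesis and melanosome proteins 15 had rows and 8 were tested: 1 rose and 3 fell, OCA2 among them, and the median log2 fold change was -0.01. Shares over all tested genes were 38.0% higher and 37.9% lower. MLANA, SLC45A2, SLC24A5 and TRPM1 had 10, 2, 13 and 24 counts over all 6 libraries.

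Genes that build and move melanosomes, most of which serve other lysosome-related organelles as well, were widely expressed and divided between directions. RAB27A and MYO5A, the GTPase and the myosin motor that carry melanosomes along actin, rose from 3.65 ± 0.23 to 18.4 ± 0.53 CPM (2.33 ± 0.112) and from 11.3 ± 0.46 to 42.6 ± 0.85 CPM (1.92 ± 0.072). BLOC1S5 and BLOC1S6, subunits of a sorting complex, fell by 0.46 ± 0.063 and 0.39 ± 0.053. Of 22 tested genes 10 rose and 9 fell (median 0.0902), which is close to the shares over all tested genes. HPS1, a gene most cells express, had 2 counts over all 6 libraries. Why HPS1 was so low was not tested.

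**Figure D4:**
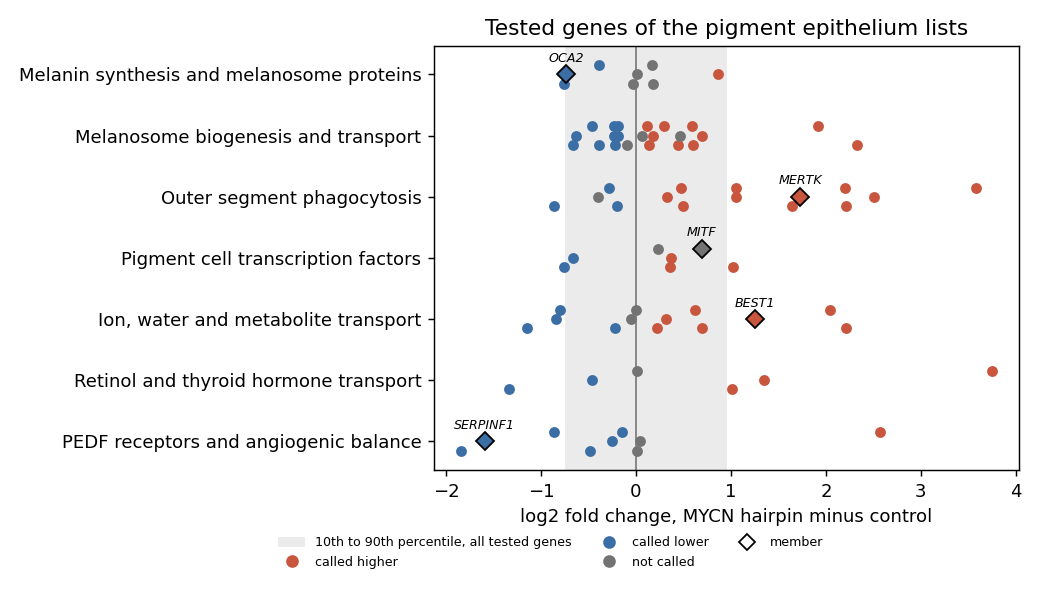
Log2 fold change of every tested gene of the 7 pathway lists, MYCN hairpin minus control, with members as diamonds and the grey band spanning the 10th to 90th percentile of all tested genes (-0.74 to 0.95). Most phagocytosis genes lie right of 0, with 11 of 15 called higher, and SERPINF1 and MERTK lie outside the band on opposite sides. The lists were chosen with earlier results of these data known.

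TTR encodes transthyretin, the carrier of thyroid hormone and of retinol-binding protein, which the pigment epithelium, choroid plexus and liver secrete. The gene (chr18:31557010-31599021, GRCh38, plus strand) had 1 count, in control replicate 1, and 0 in the other 5 libraries. Both groups were at or under the limit of 3 counts, so no fold is given. Other genes of retinol and thyroid hormone transport were measured. STRA6, the membrane receptor for retinol-binding protein, rose from 31.1 ± 1.3 to 62.8 ± 2.01 CPM (log2 fold change 1.01 ± 0.057). CRABP2, a retinoic acid carrier gene, fell from 491 ± 16.4 to 194 ± 6.3 CPM. Of 6 tested genes of this list 3 rose and 2 fell (median 0.51), against 38.0% and 37.9% of all tested genes. One that rose, RBP4, passed the filter on low counts only through the MYCN hairpin libraries, and at the filter of 1 CPM in 3 libraries 2 rose and 2 fell (median 0.28).

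The members span a wide range of levels per length of exon. In controls SERPINF1 stood at 147 ± 6.2 CPM per kilobase and MERTK at 2.04 ± 0.32 (SD, n = 3). OCA2 followed at 0.324 ± 0.093 and BEST1 at 0.276 ± 0.0098, which differ by less than their spread, then MITF at 0.0968 ± 0.015 and PMEL at 0.0808 ± 0.022, which also do. With the MYCN hairpin SERPINF1 stood at 48.5 ± 1.2 and MERTK at 6.73 ± 0.23, and BEST1, at 0.657 ± 0.071, was above OCA2, at 0.195 ± 0.011. OCA2, MITF (0.157 ± 0.055) and PMEL (0.139 ± 0.078) then lay within their spread of each other. The ratio between SERPINF1 and MERTK thus narrowed without a change of order.

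The genes whose profile over the 6 libraries lay closest to each of the 3 members with the highest mean CPM were found by the root mean square distance between centred log2 CPM values. For SERPINF1 they were PHB2, a prohibitin gene (distance 0.0311), and GOT2, the mitochondrial aspartate aminotransferase gene (0.0416). PHB2 went from 377 ± 11.1 to 121 ± 4.5 CPM and GOT2 from 384 ± 1.5 to 126 ± 2.9 CPM. For MERTK they were LDAF1 (0.0505), a lipid droplet gene, and CNTN4 (0.0721), a neuronal adhesion gene. For BEST1 they were HIPK2 (0.0525), a kinase gene, and SPOPL (0.054), a ubiquitin ligase adaptor gene. With 2 groups of 3 these distances mainly compare the size of the group difference.

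Transcripts were searched for 2 sequences of 7 bases, AGCACAA and GTGGATC, which an earlier analysis had picked from these same fold changes. In the longest protein-coding transcript of each gene (GENCODE 29), PHB2 and GOT2 hold GTGGATC. The members SERPINF1, MERTK, OCA2, PMEL, TYR, TYRP1 and TTR hold neither, nor does CNTN4. MITF and SPOPL hold AGCACAA, and BEST1 and HIPK2 hold both. LDAF1 was not searched. Either sequence was found in 40.3% of tested genes with such a transcript. Since the sequences were picked from these fold changes, nothing is read from which genes hold them.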

How the data were processed

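RNA of 3 control and 3 MYCN hairpin libraries of Y79 cells was extracted with TRIzol and poly(A)-selected, per the labels' protocols. The authors deposited estimated counts per gene symbol, not scaled between libraries, per the file headers and values. Per the submitters' processing notes, GRCh38 served as the genome. No source used here names the aligner, counting program, annotation or strand setting. The table had 17035 rows, of which 22 without values were dropped. Totals were 15490263 to 16078416 counts per library. Replicates were not duplicates (chi-square per degree of freedom 1.73 to 4.23).

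Groups and replicate numbers came from titles. Counts were rounded, filtered with filterByExpr (minimum 10 counts) and tested with the edgeR 4.0.16 quasi-likelihood F-test (robust, TMM scaling, R 4.3.3), with Benjamini-Hochberg adjustment over 12819 genes at 0.05. Standard errors come from the F statistic. The filter kept MITF through the 3 MYCN hairpin libraries, since only 2 controls reached it. Alternatives were DESeq2 1.42.0, limma-voom (limma 3.58.1), other scalings and filters, a replicate block and each library left out. The fit was tested on simulated data, where recovery of changed genes was incomplete at low abundance, the range of OCA2, MITF and PMEL. The first pass criterion, set over all genes, was missed and was then replaced by one for genes of at least 5 CPM, which was met. The simulation gave all genes the same spread between replicates and changed far fewer genes than were called here. Meeting it therefore does not measure how reliable the calls are. Count intervals are exact (95%) and cover counting error only.

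The members and gene lists were chosen with earlier results of these data known. Named genes are the members, MYCN, in each list and direction the 2 called genes of lowest p that are no members, genes that overlap a member, and the 2 nearest profiles of 3 members. The remaining TAM receptors, their ligands, ITGB5, CD36, RAC1, DOCK1, ELMO1, TUB, PNPLA2, PLXDC1, PLXDC2, LRP6, TFE3, TFEB, DCT, GPR143, RBP4, CA2, RPE65, CLDN19, CA14 and the genes named at or near 0 were added after values were seen. Some genes that the rule names are not reported here. Positions are from GENCODE 29 (GRCh38).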

Additional observations from a re-analysis of the deposited data

How the results depend on the processing

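MERTK (log2 fold change 1.66 to 1.91), SERPINF1 (-1.63 to -1.41) and BEST1 (1.18 to 1.43) kept direction and call in all 14 alternatives. All of these used the same deposited BEST1 counts, so none varied how reads were divided between BEST1 and FTH1. OCA2 was the only called member to lose its call, which left 1 member called lower with DESeq2, limma-voom, upper quartile scaling, library size only, no filter and the filter of 1 CPM in 3 libraries (where OCA2 and MITF were not tested). Its log2 fold change was -0.74 with DESeq2, -0.68 with limma-voom, -0.70 with upper quartile scaling, -0.55 with library size only and -0.75 without a filter. MITF was called at 0.73 with upper quartile scaling and 0.87 with library size only. With single libraries left out, OCA2 ranged from -0.92 to -0.51, MITF from 0.37 to 0.83 and the members called lower from 1 to 2. Library size alone raised the median of all tested genes from 0.0046 to 0.186 and gave 6597 genes higher and 3348 lower, against 4865 and 4857. DCT was 0.0045 with upper quartile scaling and 0.15 with library size only, and LRP6 was 0.03 with the latter.

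Upper quartile scaling gave 3 melanin genes higher (median 0.026). Library size only gave 4 melanin genes higher (median 0.17), 4 melanosome biogenesis genes lower (median 0.27), a phagocytosis median of 1.23, 5 transcription factors higher, 2 transport genes lower (median 0.40), and 3 PEDF-list genes higher and 3 lower (median -0.073). Without a filter 2 melanin genes were higher (median 0.10), 5 transcription factors were higher, and the medians were -0.027 for biogenesis, 0.76 for phagocytosis and -0.0049 for retinol transport. The 1 CPM filter gave medians of 0.014 for melanin and 0.28 for retinol genes. DESeq2 gave 1 transcription factor and 2 transport genes lower. With single libraries left out, the melanin list had 1 to 2 genes higher (median -0.053 to 0.047), the PEDF list a median of -0.31 to -0.20, the transcription factors 3 to 5 higher and 1 to 2 lower, and the transport list 2 to 4 lower. The causes were not tested, beyond the different genes that each filter admits. Low counts limit OCA2, MITF, PMEL, TYRP1 and TTR.

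The groups shared replicate numbers, which were not taken as pairs because the labels name no pairing. Deviations of same-numbered libraries correlated at 0.131, 0.115 and 0.0592, and each library correlated best with its own number. Correlations between different numbers ran from -0.126 to 0.0134. With a replicate block 4967 genes were higher and 4939 lower, OCA2 had an adjusted p of 0.0495, TUB was called lower and 2 melanin genes were higher.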

Other observations

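Some genes of the pigment epithelium outside the members, chosen after their values were seen, had more counts with the MYCN hairpin. Except for CLDN19, and for GPR143, which was not tested, those named as higher passed the filter on low counts only through the MYCN hairpin libraries. They are given as a description. RPE65, the isomerase of the visual cycle, had 11 counts over all controls and 235 over all MYCN hairpin libraries. The ratio was 19.2, with an exact 95% counting interval of 10.5 to 38.9. RBP4, the plasma retinol carrier that transthyretin binds, had 2 and 35 counts. GPR143, a melanosome receptor gene, had 0, 0 and 0 counts in the controls and 6, 7 and 1 with the MYCN hairpin. Set against a limit of 3 counts over the control group, this is 4.19-fold. That value takes the MYCN hairpin counts as exact, so it is not a lower bound. CA2, a cytosolic carbonic anhydrase gene, stood at 0.741 ± 0.13 CPM in controls and 3.07 ± 0.29 CPM with the MYCN hairpin (SD, n = 3). RLBP1 had 2 and 0 counts and RGR had 8 and 7. CLDN19, a tight junction gene, stood at 10.8 CPM in controls and 12.8 CPM with the MYCN hairpin. It was called higher (log2 fold change 0.23 ± 0.096, edgeR adjusted p = 0.026), a call that was not followed through the alternatives.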
